A study of Allium mongolicum with 12 samples.

Results

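Roots of Allium mongolicum seedlings held in a saline-alkali solution were compared between an early and a late time, 72 h against 24 h, by RNA sequencing. Allium mongolicum is a wild onion of dry steppe. The 24 h group (T24) and the 72 h group (T72) each had 3 libraries. Both had been moved to the same solution, made of 1 part NaCl, 9 parts Na2SO4, 9 parts NaHCO3 and 1 part Na2CO3 at a total salinity of 150 mmol/L. Seedlings had grown for 45 days at 25 °C and then spent 7 days in dilute nutrient solution before the stress. The other 6 libraries were of roots at 0 h (CK, no saline-alkali exposure) and of roots at 48 h (T48). There was no unstressed group at 24 h or 72 h, so the length of the stress and the age or day of the plants cannot be told apart in what follows. The labels give 20 seedlings per group and do not say whether the libraries of a group came from separate plants. The p-values hence reflect how far these libraries spread, possibly for technical reasons alone.

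Of 98328 features in the table, 20778 had a mean of at least 5 CPM over the 6 libraries of 24 h and 72 h and a mean of at least 1 CPM at each time. CPM divides each count by the library total, so that libraries of unequal depth can be compared. The rule leaves aside transcripts seen at almost only 1 of the times: of 20883 features that met the mean of 5 CPM, 12 fell below 1 CPM at 24 h and 93 at 72 h. The 862 members from 5 to 5.5 CPM had a median log2 change of 0.09, and the 905 features just outside, from 4.5 to 5 CPM, had 0.08. The members held 92.3% to 93.9% of all counts in every one of the 12 libraries, with a median count per member of 406 to 490. Library totals ran from 23099287 to 26388120. A feature here is a transcript assembled from reads, with an assembly ID and no gene name. The file pairs no ID with a gene, so roots could not be checked against root marker genes, and functions are not given.

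Saline-alkali stress joins salt with alkalinity. Sodium upsets the ion and water balance of root cells, and carbonate salts raise the pH around the root, which makes iron, phosphate and other nutrients harder to take up. Roots are known to answer in stages, with early signalling and osmotic adjustment first and changes in transport, cell walls and metabolism later. In whole roots, fewer cells of a type and less RNA per cell cannot be told apart.

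Most transcripts differed little between 24 h and 72 h roots. Across the 20778 features, log2 CPM of a 24 h library and a 72 h library had a correlation of 0.897 to 0.924 over 9 library pairs. It was 0.917 to 0.937 among the 72 h libraries and 0.988 to 0.989 among the 24 h libraries. This correlation is across features, which are not independent replicates. Of the members, 85% changed less than 1.5-fold and 95% less than 2-fold, with a median log2 change of 0.02. Over all 76273 features tested these shares were 58.9% and 76%, with a median of -0.001. Faint features dominate that wider set.

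The groups differed in how much their own libraries varied. The median coefficient of variation among 3 libraries was 6.23% at 24 h, 13.4% at 72 h, 18.8% in CK and 20.7% at 48 h. It was larger at 72 h than at 24 h for 16269 members (78.3%). The biological coefficient of variation, the spread beyond counting noise that edgeR estimates, was 8.33% at 24 h, 27.7% at 72 h, 36.2% in CK and 37.5% at 48 h. The 24 h libraries therefore lie far closer together than separate samples of the other groups, and results are also given with these 3 libraries averaged to 1. T48 replicate 2 went against its label in part: its correlation was 0.865 to 0.869 with the other 48 h libraries and 0.891 to 0.929 with the CK libraries. It enters the test only through the shared spread, and the levels at 48 h are also given without it where a called set is summarised.

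**Figure D1:**
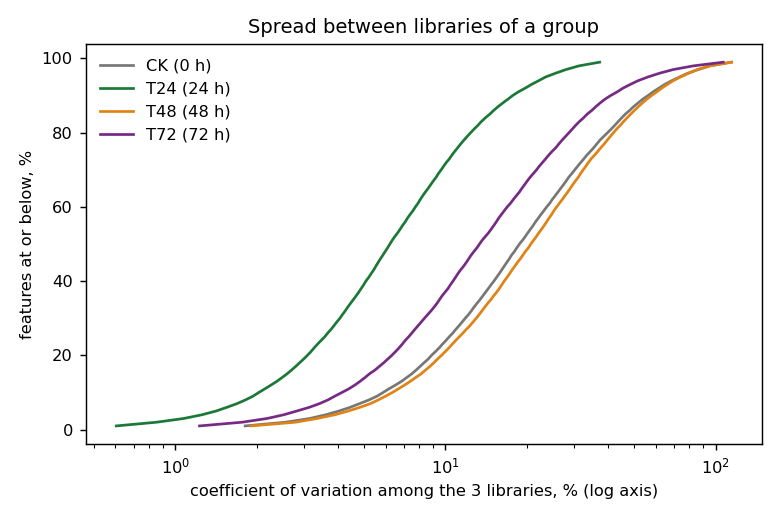
Share of the 20778 features (y axis, %) at or below each coefficient of variation among the 3 libraries of a group (x axis, %, log scale), 1 line per group. The 24 h line lies to the left of all others, with a median of 6.23% against 13.4% at 72 h.

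The largest rises and falls show the range of change between the early and late roots. The 4 features below were taken by size of change, 2 in each direction, among features that passed the test with groups apart and a mean of at least 20 CPM. The values below are CPM after TMM scaling, a correction of library totals that assumes most transcripts do not change. Fitted changes are from edgeR's quasi-likelihood test on all 12 libraries, with Benjamini-Hochberg adjustment over 76273 features.

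The feature TRINITY_DN38984_c0_g1_i3_3 was faint in all roots except those at 72 h. It stood at 3.62, 3.27 and 3.48 CPM in the 24 h libraries and at 164, 24.7 and 31.3 CPM in the 72 h libraries. The groups did not overlap, but the first 72 h library was 6.65 times the lowest of its group. In CK it stood at 1.48, 3.24 and 2.08 CPM and at 48 h at 2.06, 3.89 and 4.72 CPM, so each of the 9 libraries before 72 h was below 5 CPM. The fitted rise was 4.41 on the log2 scale (SE 0.70, edgeR adjusted p = 0.0126, 3 of 3 libraries higher). Without T72 replicate 1 the rise was 3.02 (edgeR adjusted p = 0.0157), and without a 24 h library it was 4.37 to 4.44 but no longer called, with an edgeR adjusted p of 0.103 to 0.112.

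The feature TRINITY_DN35851_c2_g1_i3_1 was low at both earlier stress times and high at 72 h. It was at 15.4, 19.4 and 20.9 CPM in the 24 h libraries and at 149, 85.0 and 126 CPM in the 72 h libraries. All 72 h libraries lay above all libraries of the other times. CK roots were intermediate, at 45.9, 33.9 and 73.7 CPM, and 48 h roots were lowest, at 8.80, 15.2 and 4.17 CPM. The fitted rise was 2.70 (SE 0.43, edgeR adjusted p = 0.0131, 3 of 3 libraries higher). It was not called without T24 replicate 1, 2 or 3 (edgeR adjusted p from 0.0882 to 0.114) or without T72 replicate 1 (0.0553).

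The feature TRINITY_DN35879_c0_g1_i2_2 was highest at 24 h and nearly gone at 72 h. It was at 33.9, 39.6 and 38.3 CPM in the 24 h libraries and at 3.63, 2.08 and 5.30 CPM in the 72 h libraries. Every 72 h library lay below every library of any other time. CK stood at 17.7, 18.1 and 9.28 CPM and 48 h at 21.7, 10.5 and 26.4 CPM. The fitted fall was -3.34 (SE 0.42, edgeR adjusted p = 0.00424, 3 of 3 libraries lower).

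The feature TRINITY_DN38680_c0_g1_i2_1 took the same course at a higher level. It was at 172, 211 and 202 CPM in the 24 h libraries and at 21.2, 19.3 and 38.5 CPM in the 72 h libraries. CK stood at 83.4, 40.7 and 70.0 CPM and 48 h at 141, 86.1 and 131 CPM, between the early and the late stressed roots. The fitted fall was -2.89 (SE 0.33, edgeR adjusted p = 0.0026, 3 of 3 libraries lower). Both falls were called without any single one of the 12 libraries. With the 24 h libraries averaged to 1, on the features of the main filter, the falls were -3.34 and -2.88 and not called. The rises there were 4.40 and 2.70 and likewise not called. That alternative was added after the data were seen.

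**Figure D2:**
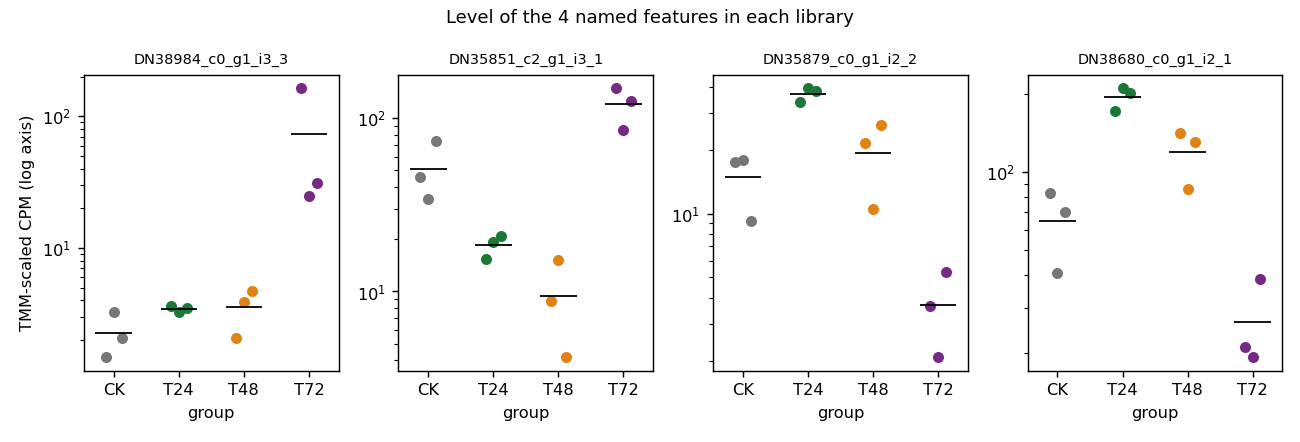
Level of the 4 named features (y axis, TMM-scaled CPM, log scale) in each library, 1 point per library and a line at the mean of each group (x axis). From left to right, the 24 h libraries lay at 3.27 to 3.62, 15.4 to 20.9, 33.9 to 39.6 and 172 to 211 CPM. The 72 h libraries lay at 24.7 to 164, 85.0 to 149, 2.08 to 5.30 and 19.3 to 38.5 CPM.

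Over all members, 100 features rose and 77 fell between 24 h and 72 h (edgeR quasi-likelihood test, adjusted p below 0.05). These 177 are 0.852% of the members, against 1.18% of all features tested. In the wider set 0.152% of features were called higher and 1.03% lower, and among the 55495 tested features outside the rule 16 were called higher (0.0288%) and 706 lower (1.27%). The large excess of falls over the whole table was thus carried by features that are faint or almost absent at one time. The features above 5 CPM that the minimum of 1 CPM left aside give 78 of those falls, out of 93 with a 72 h mean below 1 CPM.

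Which direction led among the members depended on the setting. Median-of-ratios (RLE) factors gave 87 rises and 84 falls (1.18% of all tested features called), and scaling by library totals alone gave 88 and 97 (1.24%). Falls led without T72 replicate 2 (37 rises and 87 falls), without T72 replicate 3 (35 and 60) and without T24 replicate 1, 2 or 3 (1 and 11, 1 and 9, 5 and 10). Rises had a median log2 change of 1.13 (2.19-fold) and falls a median of -1.54 (2.91-fold). Among the rises 41 of 100 were smaller than 2-fold, and among the falls 19 of 77. All 177 had their 3 libraries of 72 h on one side of the 3 of 24 h. That alone is common here: 4304 members lay apart upward and 3727 downward, 38.7% together. Over all tested features 12.4% lay apart upward and 16.3% downward, 28.7% together. Neither share is set against chance, since the near-identical 24 h libraries may not be independent.

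By level, 24 of the 10916 members at 5 to 20 CPM rose and 38 fell. At 20 to 100 CPM 63 of 7993 rose and 29 fell, and at 100 CPM or more 13 of 1869 rose and 10 fell. At 20 to 100 CPM rises also led under RLE factors (54 and 31) and under plain library totals (49 and 37). The balance there turned to 21 rises and 40 falls without T72 replicate 2 and to 21 and 26 without T72 replicate 3. Without T24 replicate 1, 2 or 3 it was 0 and 9, 0 and 7 or 4 and 8. At 5 to 20 CPM the balance turned to 399 rises and 372 falls in a fit restricted to the 6 libraries compared and to 418 and 333 with limma.

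The number of calls depended strongly on the 24 h libraries. Without T24 replicate 1, 2 or 3 it was 12, 10 or 15 (0.176%, 0.166% and 0.222% of all features tested were called then), and with the 3 averaged to 1 it was 0. The averaged fit has 1 library left at 24 h and borrows its spread for 24 h from the remaining groups. With only the 6 libraries compared in the fit, edgeR called 1957 members, which is 9.42% of members, where 8.32% of all features tested in that fit were called. On all 12 libraries DESeq2 called 944 (4.54% of members, against 4.27% of all tested features). There limma with a variance per group called 1825 (8.78% of members, against 7.56% of all tested features). All 177 were among the calls of each of these 3. Leaving out T48 replicate 2 gave 417 calls among members, with 1.67% of all tested features called. Leaving out T72 replicates 1, 2 and 3 in turn gave 40, 124 and 95, with 0.416%, 0.6% and 0.564% of all tested features called.

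**Figure D3:**
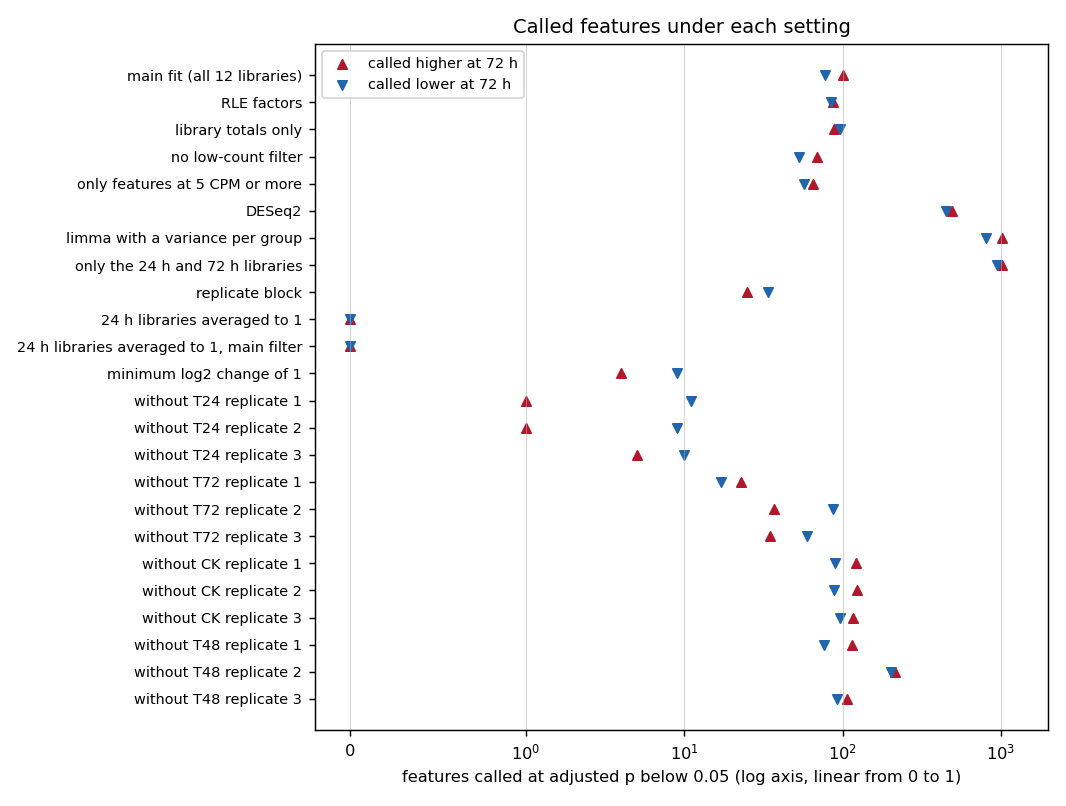
Number of members called higher (upward triangles) or lower (downward triangles) at 72 h than at 24 h (x axis, log scale, linear from 0 to 1) under each setting (y axis). Counts ran from 0 in each direction with the 24 h libraries averaged to 1017 rises with limma and 943 falls in the fit on the 6 libraries alone.

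**Figure D4:**
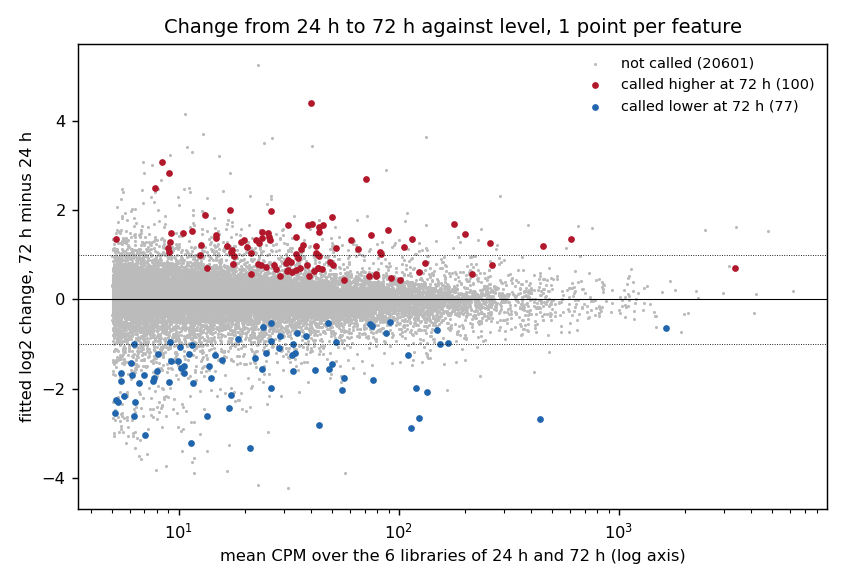
Fitted log2 change from 24 h to 72 h (y axis) against mean CPM over the 6 libraries (x axis, log scale), 1 point per feature, with dotted lines at 2-fold. The 100 rises and 77 falls that passed the test lie among many features of equal size of change that did not.

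A larger number of features changed by 2-fold or more without passing the test. The fitted change was at least 2-fold upward in 470 members and downward in 575, against 9.69% and 14.3% of all tested features. Of these features, 117 were called and 928 were not. The largest rise that was not called rested on 1 library. It was at 1.06, 0.701 and 1.63 CPM in the 24 h libraries and at 129, 0.118 and 0.30 CPM in the 72 h libraries, with a fitted change of 5.25 (SE 2.15, edgeR adjusted p = 0.347). The largest fall that was not called was of another kind. It was at 56.6, 59.6 and 57.6 CPM at 24 h and at 2.04, 1.57 and 5.63 CPM at 72 h, with no overlap. The feature varied more in the other groups, from 4.16 to 29.4 CPM in CK and from 0.452 to 17.2 CPM at 48 h, and the fitted change of -4.23 had an SE of 1.15 (edgeR adjusted p = 0.108). Both features were chosen after their values were seen.

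Changes of 2-fold were counted in each 72 h library and in all 3 together, where the count cannot be larger. Measured against the 24 h mean, 9.22% of members were 2-fold or more off in T72 replicate 1, 7.16% in replicate 2 and 6.88% in replicate 3. In all, 3035 members were off in at least 1 library. The matching shares over all tested features are not given. Of the 3035, 830 were 2-fold higher and 1000 were 2-fold lower in exactly 1 library. In all 3 libraries 109 members were 2-fold higher and 205 were 2-fold lower. These are 0.525% and 0.987% of members, against 1.33% and 6.81% of all tested features. Of the 109, 38 were called, and of the 205, 48. Most of the 205 were modest in level, with 156 at 5 to 20 CPM, 39 at 20 to 100 CPM and 10 above.

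Levels in the CK and 48 h groups, which are not part of the contrast, are given beside these changes. For the 100 features that rose, the median level in control roots and 48 h roots was near the 24 h level. The median log2 level of the 100 relative to the 24 h mean was 0.11 to 0.19 in the CK libraries, 0.08 to 0.20 in the 48 h libraries (0.12 and 0.20 without replicate 2) and 1.00 to 1.11 in the 72 h libraries. By this median all 9 libraries before 72 h lay between -0.02 and 0.20. The 24 h libraries are near 0 by construction, and the gap from 24 h to 72 h follows from how the 100 were called. The summed level was 5824 to 5959 CPM in CK, 5803 to 6319 at 24 h, 6121 to 7304 at 48 h and 11048 to 12447 at 72 h. In 74 of the 100 the CK mean was nearer, on the log2 scale, to the 24 h mean than to the 72 h mean, and in 71 so was the 48 h mean. For all 11052 members with a fitted change above 0 these numbers were 6088 and 6659, and nothing is read from the comparison, since the 100 were called for a clear gap between the times. The CK mean lay between the 2 stressed means in 60 of the 100, below both in 36 and above both in 4. The 48 h mean lay between in 51, below both in 38 and above both in 11. Medians near the 24 h level thus cover shifts in both directions. Over the 11052 members with a fitted change above 0 these shares were 26.8%, 45.7% and 27.5%, and again nothing is read from them. Without T48 replicate 2 the counts were 49, 36 and 15, and the 48 h mean was again nearer to 24 h in 71.

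For the 77 features that fell, the median level in control roots lay between the early and the late level. The median log2 level relative to the 24 h mean was -0.63 to -0.46 in the CK libraries, -0.45 to -0.29 at 48 h (-0.45 and -0.34 without replicate 2) and -1.58 to -1.41 at 72 h. Of the 77, 43 had a CK mean between the 2 stressed means, 24 had it above both and 10 below both. The shares over the 9726 members with a fitted change below 0 were 16.7%, 52.8% and 30.5%. A wide gap between 24 h and 72 h leaves more room for a control level inside it, so the 43 are not read against these shares. The 48 h mean lay between in 45, above both in 28 and below both in 4. Without T48 replicate 2 these were 44, 26 and 7. In 17 of the 77 all 3 CK libraries lay above all 6 libraries of 24 h and 72 h. The same held for 2511 of the 9726 members with a fitted change below 0. That such features stood below the control level at both times follows from how they were picked, and nothing is read from the 17.

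**Figure D5:**
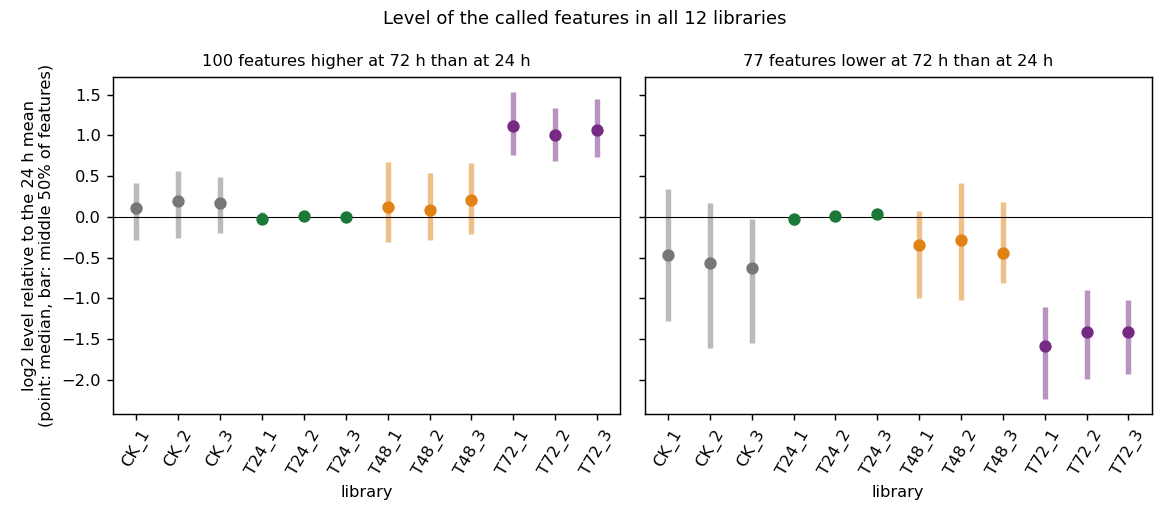
Log2 level relative to the 24 h mean (y axis) in each of the 12 libraries (x axis) for the 100 features that rose (left) and the 77 that fell (right). Points are medians over features and bars the middle 50%. Medians of the rises stand near 0 until 72 h (1.00 to 1.11). Those of the falls are highest at 24 h and lowest at 72 h (-1.58 to -1.41). The 24 h libraries lie near 0 by construction, and the gap from 24 h to 72 h follows from how the features were called.

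The wider sets that moved 2-fold in every 72 h library were alike for the rises and less so for the falls. The 109 higher features had medians of -0.09 to 0.29 in the CK libraries and 0.08 to 0.34 at 48 h (0.08 and 0.34 without replicate 2), against 1.35 to 1.48 at 72 h. The 205 lower features had medians of -2.31 to -0.995 in the CK libraries, -1.74 to -0.81 at 48 h and -2.29 to -1.93 at 72 h. For them CK replicate 3 (-2.31) was below all 72 h libraries. T48 replicate 2 gave the -0.81, with the other 48 h libraries at -1.74 and -1.36, and was the highest of its group in 126 of the 205. The CK mean lay between the 24 h and 72 h means in 130 of the 205, below both in 40 and above both in 35. Over the 9726 members with a fitted change below 0 these shares were 16.7%, 30.5% and 52.8%. The 205 were picked for a wide gap, so they are not read against these shares. The 48 h mean lay between in 127, below both in 29 and above both in 49. Without T48 replicate 2 these were 105, 69 and 31.

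Of the 177 features 10 were called without any single one of the 12 libraries, 1 rise and 9 falls. These 10 are all the members called without T24 replicate 2, so the balance of rises and falls is that of this fit. In it 136 of 82014 tested features were called (0.166%). The share of all tested features called without each library in turn is not given. The 9 falls ran from -3.34 to -0.96 on the log2 scale, at mean levels of 21.1 to 124 CPM, with an edgeR adjusted p of 0.00117 to 0.0049. In each of the 9 the CK mean lay below the 24 h mean and above the 72 h mean, and in 8 of them the 48 h mean lay between 24 h and 72 h as well, with or without T48 replicate 2. A wide gap between 24 h and 72 h leaves room for a control mean inside it, so no course against control roots is read from these 9. One of the 9, chosen after its values were seen, was at 112, 116 and 118 CPM at 24 h and at 29.6, 28.9 and 40.7 CPM at 72 h. CK libraries of that feature lay from 30.2 to 49.1 CPM, overlapping those at 72 h, and 48 h libraries from 58.6 to 74.0 CPM.

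The single rise among the 10 climbed through the stress times. It was at 62.1, 63.9 and 64.3 CPM at 24 h, at 105, 99.9 and 116 CPM at 48 h and at 155, 124 and 149 CPM at 72 h. CK roots stood at 55.8, 54.8 and 63.2 CPM, in part below and in part among the 24 h libraries. Its change from 24 h to 72 h was 1.17 (SE 0.12, edgeR adjusted p = 0.00141, 3 of 3 libraries higher). The 3 stress times did not overlap.

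Size of change is given here by level. Of the 1869 members at 100 CPM or more, 87.7% changed less than 1.5-fold, against 89.9% at 20 to 100 CPM and 80.9% at 5 to 20 CPM. Counts here are not divided by transcript length, so levels are compared within a feature only. The called rise with the highest count stood at 2777, 2388 and 2287 CPM at 24 h and at 4131, 3939 and 4135 CPM at 72 h. CK was lower, at 1333 to 1802 CPM, and 48 h lay at 2200 to 2867 CPM. Its change was 0.71 (SE 0.14, edgeR adjusted p = 0.0396, 3 of 3 libraries higher). The called fall with the highest count went from 1927, 1943 and 1969 CPM at 24 h to 1130, 1155 and 1434 CPM at 72 h. It had stood at 1911 to 2392 CPM in CK and 1404 to 1524 CPM at 48 h, and its change was -0.65 (SE 0.12, edgeR adjusted p = 0.0306, 3 of 3 libraries lower).

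One abundant feature was 2-fold higher in all 72 h libraries and was not called. It was at 2279, 2455 and 2450 CPM at 24 h and at 5051, 10873 and 4825 CPM at 72 h. Its control libraries ran from 750 to 3950 CPM and its 48 h libraries from 3555 to 9440 CPM. The fitted change was 1.53 (SE 0.54, edgeR adjusted p = 0.252). The feature with the highest count among the 205 that were 2-fold lower in all 72 h libraries was called. It went from 637, 781 and 794 CPM at 24 h to 79.5, 70.1 and 193 CPM at 72 h, with CK at 110 to 211 CPM. The change of that feature was -2.69 (SE 0.42, edgeR adjusted p = 0.0122, 3 of 3 libraries lower). All 4 were picked for their count within their set.

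Each feature ID ends in 1, 2, 3 or 4, and no source used here says what this suffix means. Suffix 3 was carried by 40 of the 100 rises (40%) and by 9 of the 77 falls (11.7%), against 24.1% of members. Suffix 1 was carried by 21 rises (21%) and 31 falls (40.3%), against 28.4% of members. In the sets that moved 2-fold in every 72 h library the shares were alike: 44% of the 109 higher features carried suffix 3, and 47.8% of the 205 lower ones carried suffix 1. Outside the member rule, 590 of the 706 called falls (83.6%) carried suffix 1, against 30.4% of all tested features. Of the 16 called rises there, 10 (62.5%) carried suffix 3, against 23% of all tested features. These shares are a description, and no test of suffix against direction was made.

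With the suffix read as part of the ID, no 2 members came from the same assembled gene, and 1595 shared an assembly component, a group of transcripts joined by common sequence, with another member. With the suffix ignored, 6424 members would share a gene ID with another member. With the suffix kept, 18 of the 177 called features shared a component with another member, in 16 components. In 2 components 2 features were called, in both cases as falls, and no component held calls in opposite directions. In one, the features were at 58.9, 78.5 and 72.7 CPM and at 23.2, 22.9 and 19.8 CPM at 24 h, and fell by 1.57 and 1.36 on the log2 scale. In the other, the fall with the highest count came with a feature that went from 96.0 to 110 CPM at 24 h to 67.9 to 79.5 CPM at 72 h. Of 15 uncalled component mates, 11 had a fitted change of the same sign as the called feature and 4 the opposite sign. Reads shared between such related transcripts could be split among them by the authors' counting, so their values are uncertain.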

How the data were processed

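RNA of roots was sequenced in 12 libraries, 3 each at 0, 24, 48 and 72 h. Per the labels' protocols, total RNA was extracted with TRIzol and sequenced as paired reads on an Illumina instrument. Per the submitters' processing notes, Trimmomatic was used. The sources used here give no assembler, aligner or counter. The deposited values were treated as estimated counts, since 1 of 990048 values above 0 is whole. That does not settle their unit, and whether they were rescaled before deposit was not tested.

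Columns were matched to samples by title. Counts were rounded and filtered with filterByExpr (76273 of 98328 features kept), and scaled by TMM. One edgeR 4.0.16 quasi-likelihood model in R 4.3.3 was fitted to all 12 libraries, with 8 residual degrees of freedom. The contrast was 72 h minus 24 h, two-sided, with Benjamini-Hochberg adjustment over all features tested and calls at 0.05. The SE is the absolute log2 change divided by the square root of F. An offset of 0.125 CPM was added before log2. A count of 3 was 0.114 to 0.13 CPM, which covers counting error only.

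The features named were the 2 largest called rises and 2 largest called falls with groups apart and a mean of at least 20 CPM. Members, rule and tests were chosen with earlier results of these data known. Gene lists could not be applied without gene names. Alternatives used RLE factors, library totals, other filters, DESeq2 1.42.0, limma 3.58.1 (voomWithQualityWeights with a variance per group), only 6 libraries, a replicate block, the averaged 24 h group, a 2-fold minimum change (glmTreat) and omission of each library in turn.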

Additional observations from a re-analysis of the deposited data

How the results depend on the processing

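The count of 177 called members (100 higher, 77 lower) was within 1.5 times in total with RLE factors, library totals, no low-count filter and only features at 5 CPM or more over 12 libraries, where 65 were higher. It rose to 944 with DESeq2 (494 higher, 450 lower), to 1825 with limma (1017 and 808) and to 1957 on the 24 h and 72 h libraries alone (1014 and 943). It fell to 13 with a minimum log2 change of 1 (4 and 9), which is 0.0626% of members, where 560 of all 76273 tested features were called. With the 24 h libraries averaged to 1 it was 0 (0 higher, 0 lower), also on the features of the main filter, an alternative added after seeing the data. DESeq2 gave no adjusted p for 62 members. Leaving out 1 library gave 10 to 417 calls, 1 to 215 higher and 9 to 202 lower. With a replicate block 59 were called (25 higher, 34 lower), 53 of them among the 177. These 59 are 0.284% of members, where 267 of all 76273 tested features were called. Whether equal replicate numbers pair the samples is not settled. Same-numbered 24 h and 72 h libraries had deviations correlated at 0.01 to 0.04 over 3 pairs, and over all groups at -0.17 to 0.14. The 24 h libraries differ so little from each other that a shared deviation could go unseen. Under the block the 2 named rises were not called (adjusted p = 0.0597 and 0.0564). None of the 177 changed sign under any alternative. The counts of members changed 2-fold, with groups apart or in the rule stayed within 1.5 times under each alternative run for them. The causes were not tested. A level of 5 CPM was 115 to 132 counts per library.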
